A study of Mus musculus with 191 samples.

Results

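The female mouse lungs described here came from 4 animals given 1,4-dichlorobenzene, a chlorinated benzene used as a moth repellent and air deodorant, and were compared with the lungs of 10 vehicle controls. The 4 arrays were chosen as those with DCBZ in their title, and they are 1 of 34 exposed groups that stand beside 14 control sets in a series of right lung lobes. DCBZ mice were female B6C3F1, labelled as 18 weeks old, and were dosed by gavage with 600 mg/kg in 5 ml/kg corn oil on 5 days a week for 13 weeks. The controls were the corn oil sets CCO5 and CCO6, with 5 mice each, of the same strain, sex, labelled age, route, volume and schedule, without the chemical. A second exposed group of the same array batch, TCPN, held 4 such mice given 1,2,3-trichloropropane at 60 mg/kg in corn oil. Each array held the RNA of 1 mouse, and no genetic alteration is named for any group. The labels do not say which control set was housed beside DCBZ, so a gene is said to have risen or fallen only where it passed the test against both sets.

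Lung tissue clears reactive chemicals with several linked systems. The transcription factor NRF2 is released when its sensor KEAP1 is modified by electrophiles or oxidants, and it then drives quinone reductase, glutathione and thioredoxin enzymes through antioxidant response elements. Carboxylesterases, carbonyl reductases and the cytochrome P450s of club cells act on the chemicals themselves. Ciliated cells, which line the conducting airways beside club cells, are marked by the many structural genes of the motile axoneme. All expression values below are on the log2 scale of the deposited table, in which every array has a mean close to 0, so a difference of 1 is read as 2-fold under the assumption of base 2.

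Of the tested genes, 142 rose and 51 fell in DCBZ, which is 1.05% and 0.377% of 13524. The adjusted p-values came from limma on all arrays of the series with Benjamini-Hochberg adjustment, at 0.05 against each set. The largest rises were in carboxylesterases Ces1g and Ces1f, in NRF2 targets such as Nqo1 and Gpx2, and in genes such as A2ml1, Ctse and Muc4. Smaller rises were found in axonemal genes. The largest falls were in the nuclear RNA Malat1, the splicing factor Sfpq and the endosomal GTPase Rab5c. Either change was called for 1.43%. Against CCO5 alone 322 genes were higher (2.38%) and 208 lower (1.54%), and against CCO6 alone 194 (1.43%) and 76 (0.562%). The counts rest on the spread shared with the other groups of the series. With the 14 arrays of DCBZ, CCO5 and CCO6 alone, 5 genes rose (Ces1g, Nqo1, Ulk4, Acox2 and Ces1f) and 0 fell by the same limma test, where 366 were higher and 250 lower at an unadjusted p under 0.05. The median SD per gene was 0.17 in that fit and 0.146 in the fit of all arrays. After quantile normalization within the batch the counts were 193 that rose and 250 that fell, so the excess of rises over falls was not kept. Every DCBZ array was above every control array for 170 genes (1.26%) and below every one for 40 (0.296%).

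The tissue identity matched the labels. The surfactant genes Sftpc, Sftpb and Sftpa1, the club cell genes Scgb1a1 and Cyp2f2 and the alveolar type 1 gene Ager had means over the whole series at or above the 99.8 percentile of all genes. Their lowest value in the 14 arrays was 4.89 (Sftpb), and DCBZ overlapped the controls for each. RNA integrity numbers in the labels were 7.8 to 8.8 for 3 DCBZ arrays, 6.7 to 7.5 for 4 CCO5 arrays and 8.4 to 8.8 for 4 CCO6 arrays, with 1 array in each group lacking a number. The mean over all probe sets of an array takes 1 level in DCBZ and CCO5 and another, slightly different level in TCPN and CCO6. Of 16 such levels in the series, 14 hold 1 control set. The animal numbers in the titles also lie nearest between DCBZ and CCO5 and between TCPN and CCO6. What the levels and the numbers reflect is not said in the labels. No gene of 13524 differed between CCO5 and CCO6 by the limma test, with 394 (2.91%) at an unadjusted p under 0.05.

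Ces1g and Nqo1 had the smallest adjusted p-values of all genes tested. Ces1g encodes a carboxylesterase that hydrolyses esters and amides and is abundant in liver. Its values were 1.10, 1.06, 1.72 and 1.71 in DCBZ, -0.64, -0.34, -0.56, -0.29 and -0.30 in CCO5 and -0.53, -0.48, -0.72, -0.45 and 0.10 in CCO6. All 4 DCBZ arrays lay above the highest control, CCO6 replicate 5. The Ces1g means of CCO5 (-0.43) and CCO6 (-0.42) were just below the median of all values, -0.386. The difference was 1.82 ± 0.14 (SE; 4 against 10 arrays), or 3.53-fold, with an adjusted p of 3.35e-18. Each SE here and below uses a spread per gene estimated over all groups of the series, not over these 14 arrays alone. Nqo1 encodes the NAD(P)H quinone reductase, and it is the textbook NRF2 target. It measured 0.81, 0.75, 0.87 and 0.76 in DCBZ, -0.43, -0.29, -0.29, 0.06 and -0.14 in CCO5 and -0.19, -0.35, -0.32, -0.19 and -0.11 in CCO6. The DCBZ values spanned a narrower range than either control set and did not overlap them. Nqo1 rose by 1.02 ± 0.10 (SE), or 2.03-fold, with an adjusted p of 2.72e-12. Leaving out each of the 14 arrays in turn gave 1.71 to 1.93 for Ces1g and 1.00 to 1.06 for Nqo1.

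**Figure D1:**
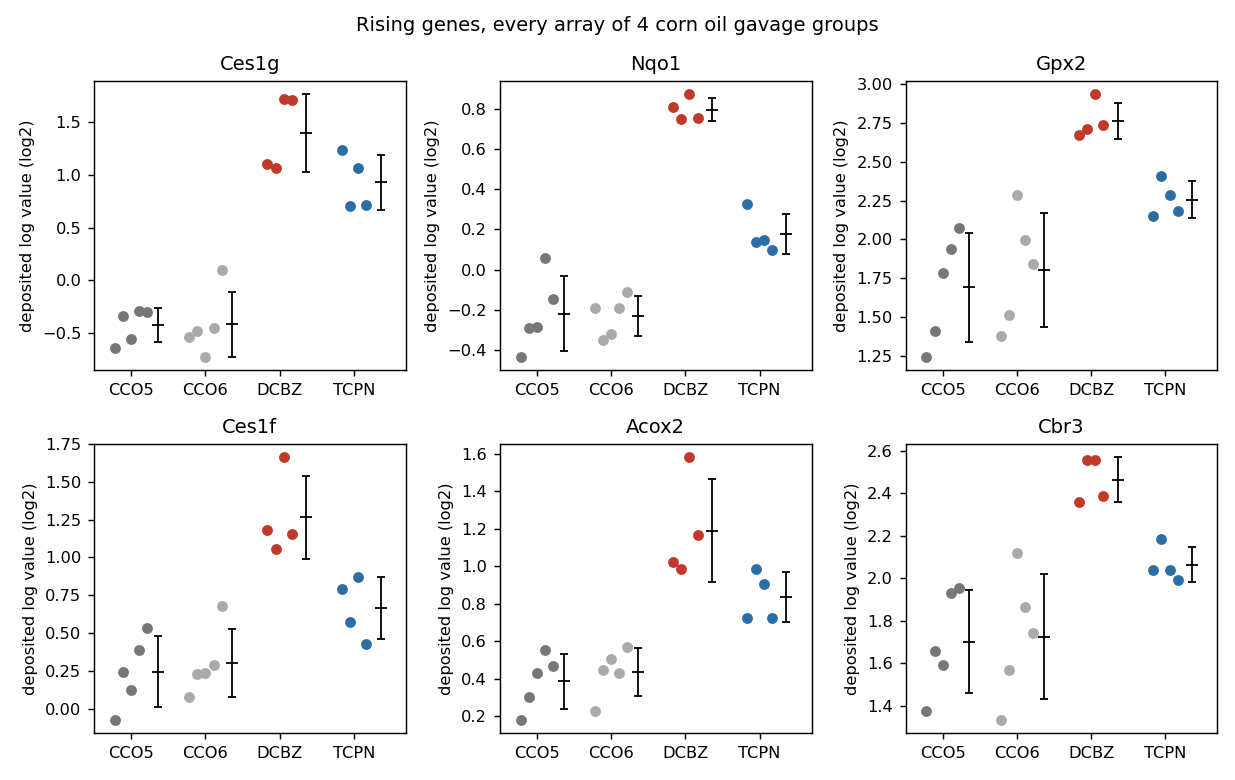
Deposited log values (vertical axis, log2) of 6 rising genes in each array of CCO5, CCO6, DCBZ and TCPN. Each point is 1 mouse and the bar beside each group is its mean ± SD. The 4 DCBZ arrays lie above all 10 control arrays in every panel, and TCPN lies between for Nqo1.

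Of the carboxylesterase list, 2 of 11 tested members rose and none fell, against 1.05% and 0.377% of all genes. Ces1f, a close relative of Ces1g in the same gene cluster, measured 1.18, 1.06, 1.66 and 1.16 in DCBZ, -0.07, 0.24, 0.12, 0.39 and 0.54 in CCO5 and 0.07, 0.23, 0.24, 0.29 and 0.68 in CCO6. No DCBZ array overlapped the controls, and the difference was 0.99 ± 0.13 (SE) with an adjusted p of 2.58e-06. None of the remaining members passed the test, which does not show that they were unchanged. Ces1d, a carboxylesterase of lung and adipose tissue, differed by 0.33 ± 0.10 (adjusted p = 0.122), Ces2g by 0.15 ± 0.10 (0.594) and Ces1e by 0.13 ± 0.08 (0.648). Ces2a was lower by value, at -0.22 ± 0.12, and Ces1c at -0.37 ± 0.23, and neither passed the test. The list median was 0.0618 against -0.0071 over all genes tested. Ces1h, which is not in the list and was named after its value was seen, rose by 0.30 ± 0.05 (adjusted p = 0.000284). Its signal was low, with means of -0.31 in DCBZ, -0.63 in CCO5 and -0.61 in CCO6, where the median of all values was -0.386. The Ces1 genes are near-identical tandem copies, so a probe set may take signal from more than 1 of them.

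Ces1g and Ces1f are also made by hepatocytes, and hepatocyte transcripts were present in these lung samples. Alb, which encodes serum albumin, measured 1.90, 0.65, 3.17 and 1.13 in DCBZ, 2.52, 2.18, 0.84, 2.29 and 1.89 in CCO5 and 2.20, 2.83, 1.68, 1.84 and 3.37 in CCO6. The highest arrays were CCO6 replicate 5 and DCBZ replicate 3, and the lowest was DCBZ replicate 2. Over 16 tested hepatocyte genes, a list added after values were seen, 0 rose and 0 fell, against 1.05% and 0.377% of all genes. The median difference for the Hepatocyte genes was -0.418. It was -0.944 without DCBZ replicate 3, -0.0981 without DCBZ replicate 2, -0.167 without DCBZ replicate 4 and -0.259 without CCO6 replicate 5. Their mean level ranged from -0.60 to 1.85 in DCBZ, -0.42 to 1.03 in CCO5 and 0.17 to 2.14 in CCO6. DCBZ replicate 3, with the highest Alb value of DCBZ, had the highest Ces1g and Ces1f values, 1.72 and 1.66. DCBZ replicate 2, with the lowest Alb value of all 14 arrays, had 1.06 and 1.06, the lowest of DCBZ. CCO6 replicate 5, with the highest Alb value, had 0.10 and 0.68, the highest of the controls. Other arrays did not keep this order. DCBZ replicate 1 had a higher Alb value (1.90) than DCBZ replicate 4 (1.13) but a lower Ces1g value. CCO5 replicate 1, with the highest Alb value of CCO5 (2.52), had the lowest Ces1g and Ces1f values of CCO5. The part of hepatocyte RNA in the Ces1g and Ces1f rises was not tested.

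Many NRF2 and glutathione genes rose together. Of 31 tested members, 12 rose and 0 fell, against 1.05% and 0.377% of all genes. Of their differences 28 were above 0, against 6453 of the 13524 genes tested. The list median was 0.282, against -0.0071 over all genes tested. The count was 8 to 12 when each array was left out in turn and 1 (Nqo1) with the 14 arrays alone. The mean level of the tested members was 2.18 to 2.35 in DCBZ, 1.67 to 2.15 in CCO5 and 1.67 to 2.12 in CCO6, so no DCBZ array overlapped a control array.

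Among the glutathione enzymes, Gpx2 rose most. It encodes the epithelial glutathione peroxidase that reduces hydroperoxides, and it measured 2.67, 2.71, 2.94 and 2.74 in DCBZ, 1.24, 1.41, 1.78, 1.94 and 2.08 in CCO5 and 1.38, 1.51, 2.28, 2.00 and 1.84 in CCO6. The DCBZ arrays sat close together and above every control array. Its difference was 1.02 ± 0.16 (SE), with an adjusted p of 0.000164. Gsr, the reductase that returns oxidised glutathione to its reduced form, rose by 0.58 ± 0.10 (adjusted p = 0.00086). Gss, which joins glycine to gamma-glutamylcysteine in the last step of glutathione synthesis, rose by 0.38 ± 0.08 (0.0423). The other tested Gss probe set differed by 0.01 and was not called. Gclc and Gclm, the subunits of the enzyme of the first step, differed by 0.18 ± 0.15 (0.728) and 0.28 ± 0.08 (0.152) and did not pass the test.

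Glutathione S-transferases, which couple glutathione to electrophiles, rose in part. The alpha class members Gsta2 (0.69 ± 0.13) and Gsta4 (0.47 ± 0.12) and the mu class members Gstm1 (0.44 ± 0.10) and Gstm6 (0.27 ± 0.06) rose. Gsta3 differed by 0.52 ± 0.15 (adjusted p = 0.294), and Gstm5 and Gstm4 by -0.04 ± 0.10 and -0.04 ± 0.07. Gsta2 had 0.99, 1.00, 1.56 and 1.49 in DCBZ, 0.02, 0.52, 0.36, 0.79 and 1.03 in CCO5 and 0.40, 0.34, 0.73, 0.77 and 0.77 in CCO6. DCBZ replicates 1 and 2 were just below CCO5 replicate 5, so the groups overlapped. These families are also close paralogs, and probe sets may be shared among members. Gsto1, an omega class transferase with thiol reductase activity, rose by 0.61 ± 0.14 (adjusted p = 0.0194) with no overlap between groups.

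Single members of the thioredoxin system and of NADPH supply rose. Txnrd1 encodes cytosolic thioredoxin reductase. It measured 2.69, 2.84, 2.80 and 2.79 in DCBZ, 1.84, 2.09, 2.23, 2.54 and 2.01 in CCO5 and 1.88, 1.86, 2.44, 2.24 and 2.48 in CCO6, with no overlap, and rose by 0.62 ± 0.11 (adjusted p = 0.00133). All 3 tested Txnrd1 probe sets were called higher when every probe set was tested, as were 4.48% of all 27904 probe sets. Txn1, the thioredoxin that this reductase serves, differed by 0.07 ± 0.11 (0.991). Srxn1, which repairs over-oxidised peroxiredoxins, was not called by its brightest probe set (0.24 ± 0.08, adjusted p = 0.149). Its other 3 probe sets were called higher, at 0.18 to 0.50. Their means over the series were 0.26, -0.26 and -0.28, against 0.68 for the brightest. Me1, the cytosolic malic enzyme that makes NADPH, rose by 0.55 ± 0.11 (0.00596), with values of 2.21, 2.29, 2.25 and 2.32 in DCBZ that were all above the controls. The other tested Me1 probe set differed by 0.33 and was not called. Of 9 tested NADPH-producing enzymes, a list added after values were seen, Me1 and Pgd (0.54 ± 0.11) rose, against 1.05% of all genes. Hmox1, the heme oxygenase that NRF2 shares with heme-sensing regulators, differed by 0.28 ± 0.12 (0.705), and Slc7a11, the cystine importer, by 0.19 ± 0.05 (0.128).

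**Figure D2:**
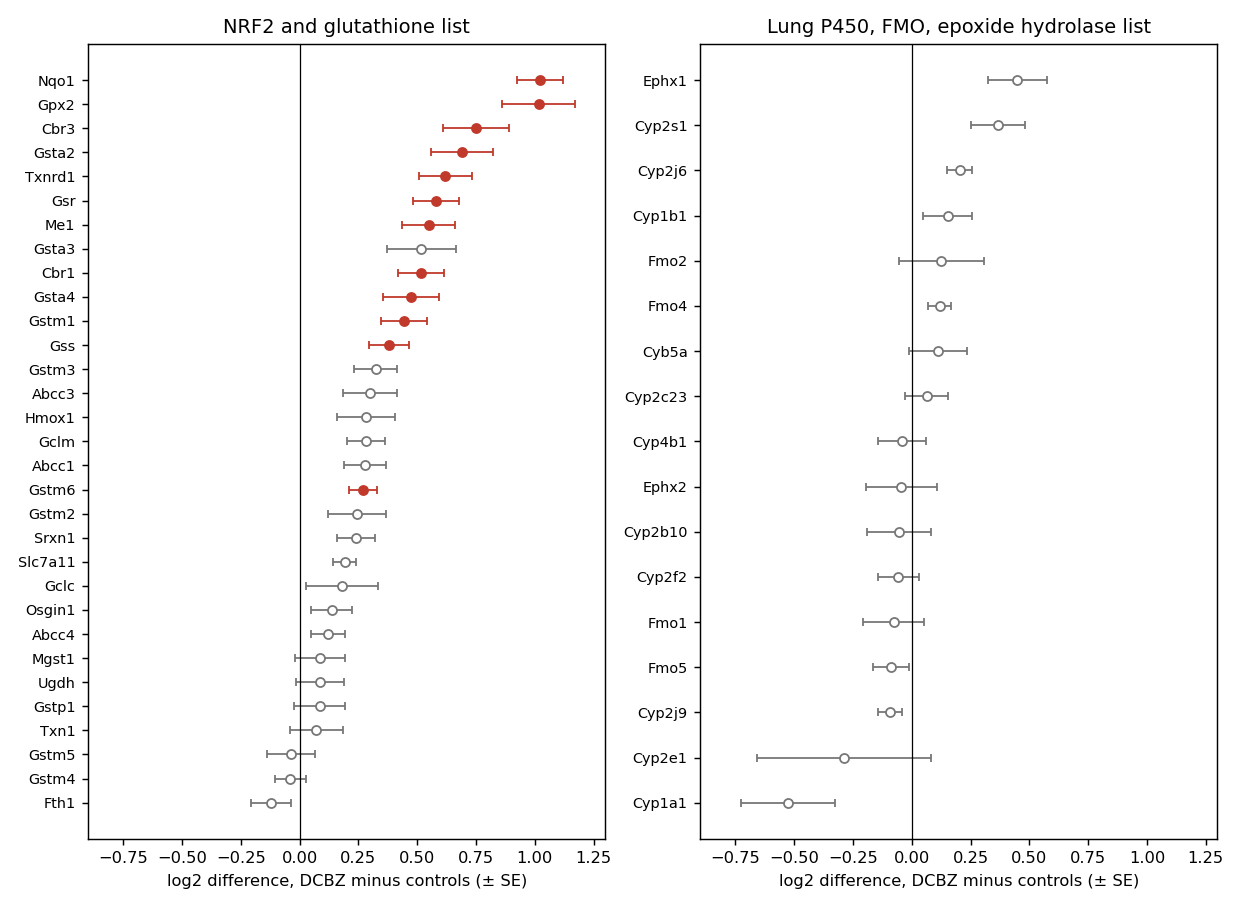
Log2 difference of DCBZ minus the mean of both control sets (horizontal axis, ± SE) for each tested member of the NRF2 and glutathione list (left) and of the lung P450, FMO and epoxide hydrolase list (right). Filled red points passed the test against both sets. On the left 12 of 31 members did so and on the right 0 of 17, against 1.43% of all genes.

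Of 24 tested aldehyde and carbonyl genes, 3 rose and 0 fell, against 1.05% and 0.377% of all genes. Their median was 0.0927. Cbr3 and Cbr1 encode carbonyl reductases that use NADPH. Cbr3 rose by 0.75 ± 0.14 (adjusted p = 0.00184) and Cbr1 by 0.52 ± 0.10 (0.00219). Cbr3 measured 2.36, 2.56, 2.55 and 2.38 in DCBZ, 1.37, 1.66, 1.59, 1.93 and 1.95 in CCO5 and 1.33, 1.57, 2.12, 1.86 and 1.74 in CCO6, without overlap. Aox1, a molybdenum-containing oxidase of aldehydes and N-heterocycles, rose by 0.62 ± 0.10 (0.000127). These were the called members of that list. Acox2, the peroxisomal oxidase of branched-chain and bile acid intermediates, rose outside the lists. Its values were 1.02, 0.99, 1.58 and 1.17 in DCBZ, 0.18, 0.30, 0.43, 0.55 and 0.47 in CCO5 and 0.23, 0.45, 0.51, 0.43 and 0.57 in CCO6. The difference was 0.78 ± 0.09 (SE), with an adjusted p of 1.57e-08 and no overlap. Of 18 tested PPAR targets and fatty acid oxidation genes, none was called, against 1.43% of all genes, and their median was -0.0261.

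No phase I enzyme of the lung list passed the test. Of 17 tested lung P450, flavin monooxygenase and epoxide hydrolase genes, 0 rose and 0 fell, against 1.05% and 0.377% of all genes. In a list of this length 0 is near those shares. The list median was -0.0418. Cyp2f2, the main club cell P450, measured 6.22, 6.17, 6.36 and 6.48 in DCBZ against 6.09 to 6.57 in the controls. Its difference was -0.06 ± 0.09 (adjusted p = 0.834). Cyp4b1 differed by -0.04 ± 0.10, and Cyp2b10, a target of the nuclear receptor CAR, by -0.05 ± 0.14 (0.971). The mean Cyp2b10 value over all arrays of the series was 4.24. Of 13 tested CAR and PXR targets, 0 were called, against 1.43% of all genes. Ephx1, the microsomal epoxide hydrolase, had the most positive difference of the lung list, 0.45 ± 0.12 (0.0753). Cyp1a1, a target of the aryl hydrocarbon receptor, measured -0.69, -0.85, -0.48 and -0.62 in DCBZ, all below the 10 controls (-0.47 to 0.38). That difference of -0.53 ± 0.20 did not pass the test (0.422). Nqo1 was the 1 called member of 6 tested aryl hydrocarbon receptor targets, where 1.43% of all genes were called. A p that misses the threshold does not show that these enzymes were unchanged.

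Promoter windows were read for 2 motifs, and 4 windows of risen genes are shown because each holds a match. The antioxidant response element was searched as TGACNNNGC and the X-box bound by RFX factors by its inverted repeat, both on both strands, in 300-base windows from 250 bases before to 50 after each RefSeq start site (GRCm38.p6). The stretches below are the 150 bases before the start site, 5′ to 3′ on the gene's strand, with the match in capitals. Txnrd1 (chr10:82859056-82859205, plus strand) and Acox2 (chr14:8259020-8259169, minus strand) hold the element. Dnaic2 (chr11:114727269-114727418, plus strand) and Hydin (chr8:110266827-110266976, plus strand) hold the X-box.
Txnrd1: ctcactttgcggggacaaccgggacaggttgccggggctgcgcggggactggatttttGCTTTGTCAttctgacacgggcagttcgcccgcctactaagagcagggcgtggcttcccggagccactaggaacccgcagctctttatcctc
Acox2: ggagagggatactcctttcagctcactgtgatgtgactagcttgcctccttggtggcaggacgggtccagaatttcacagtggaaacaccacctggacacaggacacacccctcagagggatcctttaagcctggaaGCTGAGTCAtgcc
Dnaic2: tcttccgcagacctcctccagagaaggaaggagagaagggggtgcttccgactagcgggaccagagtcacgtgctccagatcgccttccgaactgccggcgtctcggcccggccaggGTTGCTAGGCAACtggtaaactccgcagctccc
Hydin: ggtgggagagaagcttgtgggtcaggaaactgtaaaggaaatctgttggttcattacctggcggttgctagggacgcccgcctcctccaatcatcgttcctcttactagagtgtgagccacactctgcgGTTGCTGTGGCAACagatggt

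The antioxidant response element was in 12.4% of all 32851 windows and in 16.6% of the 10858 tested genes that have one. It was in 23 of 111 genes that rose (20.7%) and in 9 of 46 that fell (19.6%). In the NRF2 and glutathione list it was in 2 of 10 members that rose, Txnrd1 and Me1, and in 7 of 15 not called. The windows of Ces1g, Nqo1, Gpx2 and Cbr3 held no match to these letters. The X-box was in 1.53% of all windows and in 1.97% of the tested genes. It was in 7 of 111 genes that rose (6.31%), namely Ccdc103, Dnaic2, Erich3, Hydin, Ribc1, Ttll9 and Wdpcp, and in 0 of 46 that fell. Matches are counts of letters and not measured binding.

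Axonemal genes formed the other group of rises. Of 22 tested members of the ciliated cell list, 4 rose and 0 fell, against 1.05% and 0.377% of all genes. All 22 differences were above 0, against 6453 of the 13524 genes tested. The list median was 0.316. Hydin, a central-pair protein of the axoneme, measured 0.57, 0.57, 0.86 and 0.60 in DCBZ, 0.13, 0.27, 0.35, 0.41 and 0.30 in CCO5 and 0.22, 0.26, 0.36, 0.26 and 0.25 in CCO6. All DCBZ arrays were above the controls, with replicate 3 the highest, and the difference was 0.37 ± 0.07 (adjusted p = 0.00221). Dnaic2, an intermediate chain of the outer dynein arm, rose by 0.56 ± 0.13 (0.0194), Cfap126 by 0.48 ± 0.12 (0.0419) and Dnah9, an outer arm heavy chain, by 0.31 ± 0.07 (0.0225). Foxj1, the transcription factor that switches on the motile cilia programme, differed by 0.45 ± 0.14 (0.206), with 1.76, 1.69, 1.86 and 1.74 in DCBZ against 0.67 to 1.73 in the controls. Among 63 tested genes with the symbol stems of axonemal and ciliary proteins (Cfap, Dnah, Dnaic, Rsph, Tekt, Ift and Bbs), a family added after values were seen, 7 rose, 0 fell and 58 differences were above 0.

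The ciliary count moved with single arrays. Without DCBZ replicate 3, 1 of 22 ciliated cell genes was called and the median was 0.223. Without CCO5 replicate 1 the count was also 1, and without CCO5 replicate 2 or CCO6 replicate 2 it was 2. With the 14 arrays alone it was 0, and after quantile normalization it was 8. The mean level of the list was 1.26, 1.06, 1.64 and 1.20 in DCBZ, 0.74, 0.78, 1.01, 1.22 and 0.94 in CCO5 and 0.85, 0.92, 1.06, 0.91 and 1.02 in CCO6. DCBZ replicates 2 and 4 lay below CCO5 replicate 4, so the groups overlapped. In a piece of whole lung, more ciliated cells and more RNA per ciliated cell cannot be told apart. DCBZ replicate 3 was also the DCBZ array with the highest hepatocyte level, 1.85, and the highest adipose list level, 1.13. The part of these in the ciliary result was not tested.

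**Figure D3:**
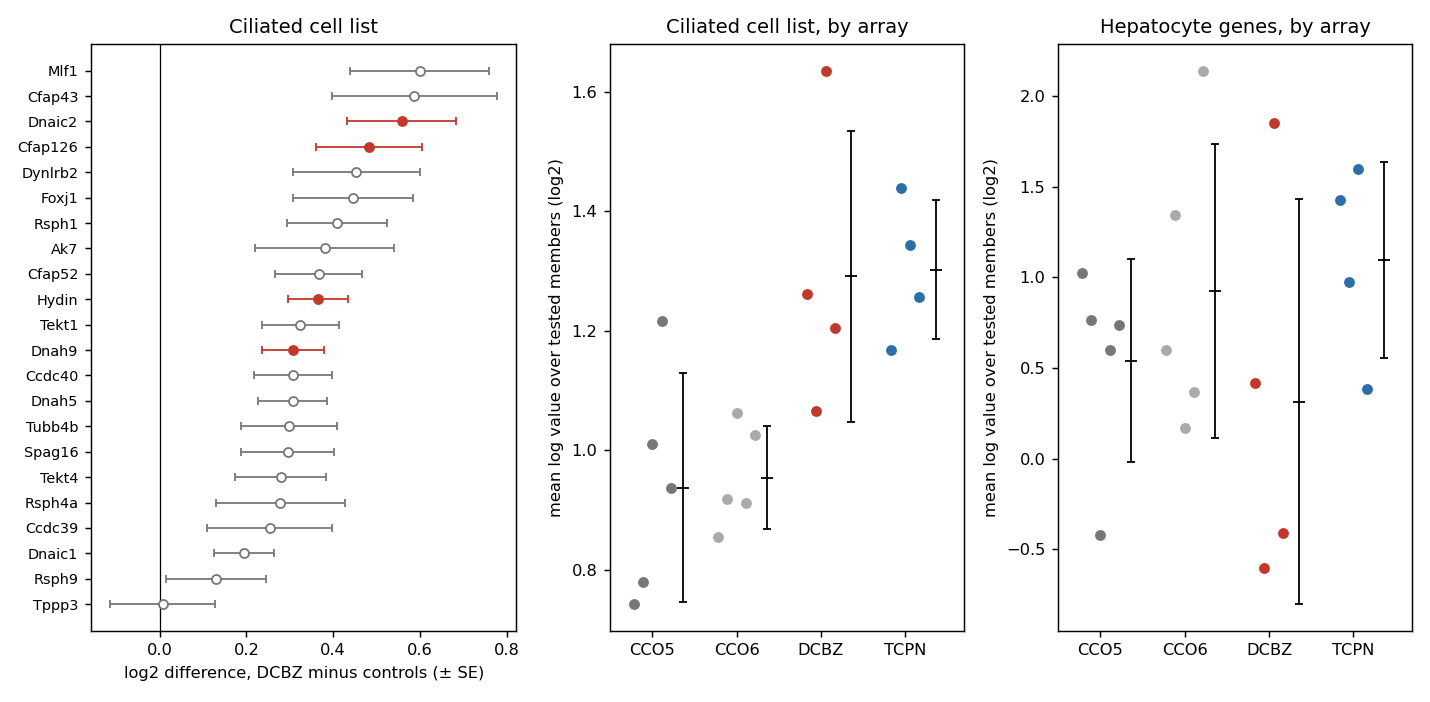
Left, log2 difference of DCBZ minus both control sets (± SE) for the 22 tested ciliated cell genes, with the 4 called genes filled red. Middle and right, mean log value over the tested ciliated cell genes and over 16 hepatocyte genes in each array, with group mean ± SD; DCBZ replicate 3 is the highest DCBZ array in both.

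Muc4, Ctse, Anxa8, A2ml1 and Cd55 were also among the largest rises, and the cells of the lung that carried them were not identified. Muc4, a membrane mucin of the airway surface, measured 0.93, 0.74, 1.56 and 0.66 in DCBZ, 0.18, 0.25, 0.61, 0.57 and 0.38 in CCO5 and 0.19, -0.02, 0.36, 0.23 and 0.14 in CCO6. It rose by 0.69 ± 0.13 (adjusted p = 0.00679) without overlap, but was not called without DCBZ replicate 3. Ctse, the endosomal aspartic protease cathepsin E, rose by 0.75 ± 0.12 (0.00031), and Anxa8, an annexin of stratified epithelia, by 0.75 ± 0.14 (0.00136). A2ml1, an alpha-2-macroglobulin-like protease inhibitor, rose by 1.08 ± 0.22 (0.00581), and Cd55, which protects cells from complement, by 0.73 ± 0.14 (0.00765). A2ml1 and Cd55 were also not called without DCBZ replicate 3. For Ctse and Cd55 the other probe sets were near the controls: -0.12 for Ctse, and 0.12 and 0.26 for Cd55. The other Anxa8 probe set differed by 0.35 and was not called. Nkx2-1, the transcription factor that defines lung epithelium, was named after its value was seen. It measured 0.88, 0.60, 0.30 and 0.63 in DCBZ, 0.30, 0.00, 0.12, 0.11 and -0.14 in CCO5 and -0.14, 0.29, 0.29, 0.01 and 0.27 in CCO6. Replicate 3 was level with the highest control and the other 3 were above it, and the difference was 0.49 ± 0.08 (0.00031).

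No gene of the secretory cell lists was called, where 1.43% of all genes were called. In lists this short 0 calls are near that share. Of 12 tested goblet and mucus genes 0 were called, although all 12 differences were above 0, with a median of 0.183. Over all 13524 genes tested, 6453 differences were above 0. Of 19 tested club cell genes 0 were called, 11 differences were above 0 and the median was 0.0743. Bpifb1 had the largest difference among the goblet genes, 1.06 ± 0.57, with an adjusted p of 0.717. Of 19 tested alveolar type 2 genes and 13 alveolar type 1 genes, none was called, which is again near the share of all genes.

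Lymphoid transcripts were lower by value and none was called, where 1.43% of all genes were called. Over 16 tested B and plasma cell genes the median difference was -0.179, and 14 were below 0. The mean level was 0.31 to 0.39 in DCBZ, 0.40 to 0.94 in CCO5 and 0.41 to 0.85 in CCO6, so the highest DCBZ array was just under the lowest control. Over 9 tested genes of lymphoid follicles and lymph node, 0 differences were above 0 and the median was -0.111. Antigen presentation genes had a median of -0.187 (2 of 15 above 0) and T and NK cell genes one of -0.136 (3 of 20 above 0). In TCPN, against the same controls, the B and plasma cell median was -0.189 and the lymphoid follicle median -0.211. The T and NK cell median was -0.0489 there and the antigen presentation median 0.0185. Of 25 tested interferon response genes, 1 rose, against 1.05% of all genes, and the list median was -0.0828. This was Stat2, a subunit of the interferon-activated complex, which rose by 0.42 ± 0.08 (adjusted p = 0.0119). The mean over its probe sets, 0.26, was not called. Cell cycle (20 tested), p53 target (18 tested), endoplasmic reticulum stress (26 tested) and acute inflammation (17 tested) lists held 0 called genes. With 1.43% of all genes called, 0 in lists of this length is near that share.

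Rises and falls alike rested mostly on a single probe set. When every probe set was tested, 4.48% of 27904 were called higher and 1.31% lower. Of the 142 risen genes, 91 had 1 tested probe set, and of the 51 with several, 12 had another called higher, 0 had one called lower and 13 had one of the other sign. Of the 51 fallen genes, 25 had 1 tested probe set, and of the 26 with several, 5 had another called lower, 2 had one called higher and 17 had one of the other sign. Malat1, a long nuclear RNA of splicing speckles, measured 1.28, 0.04, 1.36 and 0.43 in DCBZ, 2.51, 1.76, 1.83, 1.36 and 2.48 in CCO5 and 1.88, 1.99, 1.73, 1.59 and 2.53 in CCO6. DCBZ replicates 2 and 4 were the lowest arrays, and replicate 3 reached the lowest control. The difference was -1.19 ± 0.19 (adjusted p = 0.000183). Of 7 tested Malat1 probe sets, 2 were called lower (-1.19 and -1.41), and the others ranged from -0.49 to 0.15. Sfpq, an RNA-binding protein of paraspeckles, fell by 1.01 ± 0.20 (0.00771) on 1 probe set, whereas its other 5 ranged from -0.09 to 0.29. Ehd2, a membrane ATPase of caveolae, had 2 probe sets called lower (-0.71 and -0.51) and 1 called higher (0.70). Sp1, Snrpd3 and Nkd1 each had 1 probe set called of 3, 3 and 4.

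Genes with a single tested probe set cannot be checked in this way. Rab5c measured 0.61, 0.52, 0.57 and 0.69 in DCBZ, 0.85, 1.08, 1.03, 2.59 and 1.90 in CCO5 and 1.18, 1.34, 1.52, 1.51 and 1.53 in CCO6. The DCBZ arrays were close together and below all controls, of which CCO5 replicate 4 was far the highest. Rab5c fell by 0.86 ± 0.12 (adjusted p = 1.09e-05). Its SD was 0.74 in CCO5, 0.15 in CCO6 and 0.07 in DCBZ, and it was not called with the 14 arrays alone. Max, the dimerisation partner of Myc, measured -0.36, -0.40, -0.57 and -0.39 in DCBZ, -0.28, 0.04, -0.18, 1.13 and 0.46 in CCO5 and 0.20, 0.23, 0.37, 0.43 and 0.46 in CCO6. It fell by 0.71 ± 0.10 (1.26e-05), with an SD of 0.58 in CCO5, 0.12 in CCO6 and 0.10 in DCBZ. Max was also not called with the 14 arrays alone. Raly, an RNA-binding protein of the hnRNP family, fell by 0.68 ± 0.09 (5.74e-06) with no overlap, and Hnrnpl by 0.62 ± 0.13 (0.0117). Over 49 tested genes of the hnRNP and splicing factor symbol families, 3 fell (Hnrnpl, Snrpd3 and U2af1), against 0.377% of all genes. In this group, added after values were seen, 0 rose, and the median was 0.00649.

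**Figure D4:**
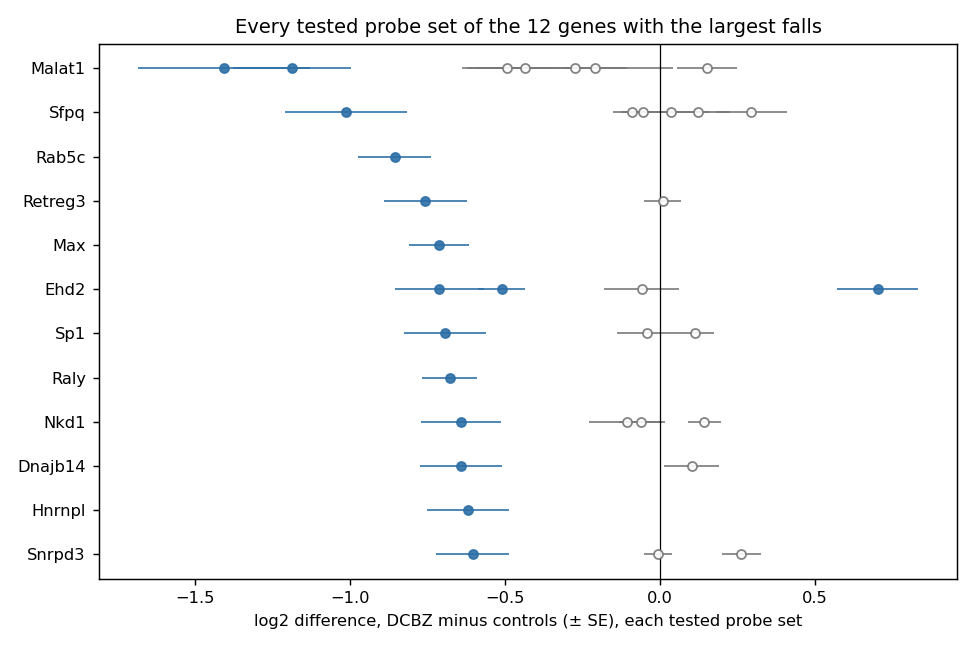
Log2 difference of DCBZ minus both control sets (horizontal axis, ± SE) for every tested probe set of the 12 genes with the largest falls. Filled blue points passed the test against both sets when every probe set was tested. Ehd2 has called probe sets on both sides of 0, and Malat1 has 2 called of 7.

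The ends of control transcripts differed along with these falls. The 3′ minus 5′ difference of the Gapdh control probe sets, a measure of RNA and labelling quality, was -0.40, -0.33, 0.01 and -0.15 in DCBZ, -0.02, 0.49, 0.33, 0.22 and 0.86 in CCO5 and 0.33, 0.27, 0.23, 0.32 and 0.11 in CCO6. The difference was -0.591 from CCO5 (2-sided exact permutation p = 0.0238, or 0.0634 adjusted over 6 tests). It was -0.468 from CCO6 (exact p = 0.00794, the smallest that 4 against 5 arrays can give, or 0.0476 adjusted). The same measure for beta-actin differed by -0.0941 from CCO5 and -0.136 from CCO6 (exact p = 0.54 and 0.31). Of the poly-A spike controls, added to the RNA before labelling, Thr measured -0.05 to 0.25 at its 3′ end in DCBZ and 0.47 to 1.56 in the controls. The spike mean over all poly-A controls overlapped between groups, at 0.216 to 0.498 in DCBZ and 0.248 to 1.78 in CCO5. It differed by -0.355 from CCO5 and -0.445 from CCO6 (exact p = 0.333 and 0.0317, or 0.4 and 0.0634 adjusted).

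A fit of the arrays of the batch alone called 266 genes higher and 147 lower, and with the Gapdh measure added as a covariate 123 rose and 47 fell. Of the latter, 72 and 17 were among the 142 and 51. The NRF2 and glutathione list then had 10 called members. Of the 32 named genes, 7 were no longer called. Rab5c differed by -0.68 (limma adjusted p = 0.0503), Hnrnpl by -0.44 (0.279) and Retreg3 by -0.67 (0.19). Ctse differed by 0.22 (0.525), Anxa8 by 0.64 (0.0732), Gsto1 by 0.69 (0.0683) and Stat2 by 0.04 (0.918). The part of these measures in the falls was not tested beyond that fit.

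The direct comparison with TCPN used no control array. Of 13524 genes, 692 (5.12%) were higher and 626 (4.63%) lower in DCBZ, and the doses of 600 and 60 mg/kg differ. Nqo1 was higher in DCBZ by 0.62 ± 0.12 (adjusted p = 0.00027), Ces1f by 0.60 ± 0.16 (0.00956), Acox2 by 0.36 ± 0.10 (0.0205) and Aox1 by 0.45 ± 0.12 (0.00911). Ces1g was 0.47 ± 0.17 higher (0.0525) and Gpx2 0.51 ± 0.19 higher (0.0625), neither of which passed. The NRF2 and glutathione list had 2 members higher, 0 lower and a median difference of 0.0919 between the groups. Over all genes tested the median difference was -0.108, and single differences are not corrected for it. For the ciliated cell list Dnaic2 differed by 0.21 ± 0.15 (0.317) and Foxj1 by -0.12 (0.608). Malat1 was lower in DCBZ than in TCPN, with a difference of -1.59 ± 0.23 (5.09e-07), and so was Max, with -0.80 ± 0.12 (7.44e-07). After quantile normalization 230 genes were higher and 90 lower.

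Values of the same genes in other corn oil gavage groups, each set against the control sets of its own array batch, place the DCBZ differences on a scale. Doses, batches and controls differ, and TCPN shares its controls with DCBZ, so no test was made. The Ces1g difference was 2.23 ± 0.14 for coumarin at 200 mg/kg, 1.96 ± 0.19 for 2,3-benzofuran at 240 mg/kg, 1.35 ± 0.14 for TCPN, 0.96 ± 0.14 for 1,2-dibromoethane at 62 mg/kg and 0.51 ± 0.14 for benzene at 100 mg/kg. Iodoform at 93 mg/kg and trichlorofluoromethane at 3925 mg/kg gave -0.04 ± 0.17 and 0.05 ± 0.17. Nqo1 had the same order, from 1.24 ± 0.10 for coumarin and 1.15 ± 0.14 for 2,3-benzofuran through 1.02 for DCBZ and 0.40 ± 0.10 for TCPN to -0.02 ± 0.12 for iodoform. Whether neighbours in this order differ was not tested. Nkx2-1 was highest in DCBZ, at 0.49 ± 0.08, next to TCPN at 0.30 ± 0.08, and lay between -0.19 and 0.08 in the other 6 groups. Hydin was 0.37 ± 0.07 in DCBZ, 0.27 ± 0.07 for 1,2-dibromoethane and 0.13 ± 0.07 for TCPN. That order is not the order of the ciliated cell list, whose median difference was 0.398 for 1,2-dibromoethane, 0.34 for TCPN, 0.322 for 2,3-benzofuran and 0.316 for DCBZ, and 0.0403 or lower in the other 4 groups. The NRF2 and glutathione list had a median of 0.435 for 2,3-benzofuran, 0.282 for DCBZ, 0.28 for 1,2-dibromoethane and 0.226 for TCPN. Neither list was set against the median over all genes of each group. The alveolar type 1 list, for scale, had a median of 0.283 for TCPN and 0.0617 for 1,2-dibromoethane. It was 0.0469 for 2,3-benzofuran and -0.0648 for DCBZ. Max was -0.71 ± 0.10 in DCBZ and also -0.71 ± 0.12 for iodoform and trichlorofluoromethane, which share 1 control set.

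**Figure D5:**
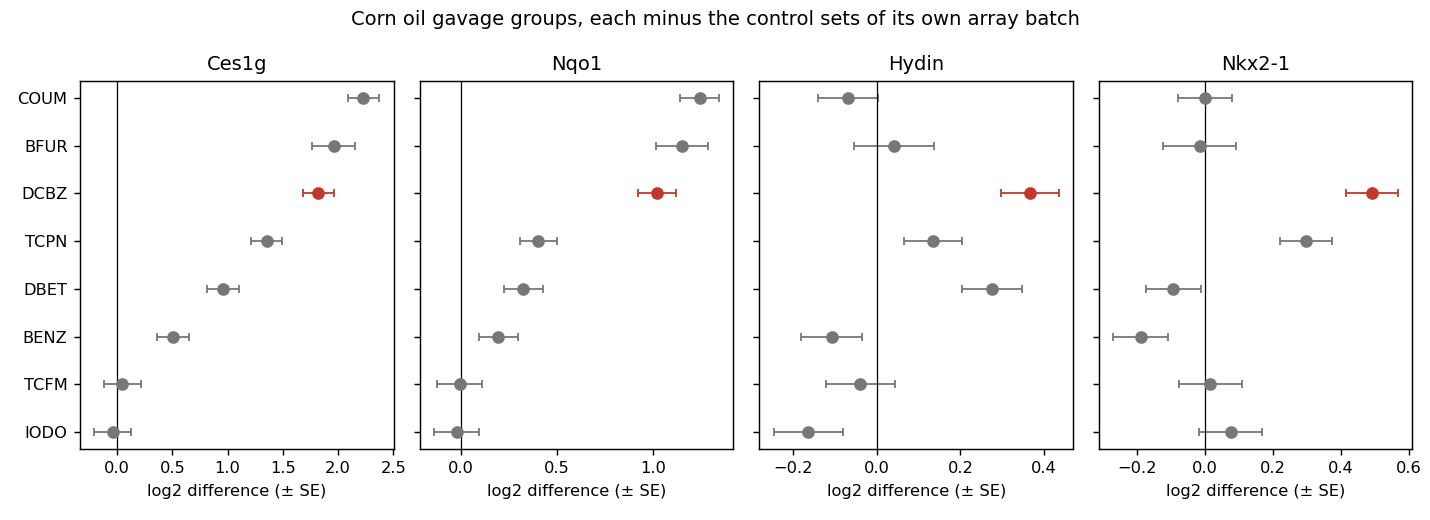
Log2 difference (horizontal axis, ± SE) of 8 corn oil gavage groups for 4 genes, each minus the control sets of its own array batch. DCBZ, in red, ranks below coumarin and 2,3-benzofuran for Ces1g and Nqo1 and is the highest for Hydin and Nkx2-1. The ciliated cell list median was higher in 3 of the other groups than in DCBZ, with no correction for shifts over all genes.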

How the data were processed

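Lung RNA was hybridised to Affymetrix Mouse Genome 430 2.0 arrays, 1 mouse per array. The deposited values were log2 intensities per probe set; base 2 was assumed, since the normalization and summary method are not given in the sources used here. The RNA integrity numbers are from the labels. Of 45101 probe sets, 34958 name 1 gene, 932 several and 9211 none, and those with several or none were left out. The brightest probe set stood for each of 18194 genes. Genes above the overall median (-0.386) on at least 3 arrays (13524) were tested with limma 3.58.1 in R 4.3.3, with 1 mean per group over the 48 groups of the whole series and Benjamini-Hochberg adjustment. A call needed an adjusted p under 0.05 in the same direction against CCO5 and against CCO6, and the larger of the 2 is printed. Differences are from the equally weighted mean of both sets, and their SE uses the spread per gene of that fit over all groups. Named genes were the 12 largest rises and falls and up to 4 called members per list. The members and lists were chosen with earlier results of these data known, and Ulk4, Nkx2-1, Wdpcp, Ces1h, Foxj1, Pgd, Bpifb1, U2af1, Alb and the X-box genes outside the lists were named after their values were seen. Alternatives were another normalization, filter, probe set rule, set of arrays, control set and RNA quality covariate, and each array left out. Array number limits the precision. The testing script was tested on simulated data. Promoter sequences are from RefSeq (GRCm38.p6), with windows for 30 of 32 named genes.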

Additional observations from a re-analysis of the deposited data

Results flagged for a closer look

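In 96 groups of 4 or 5 arrays examined over the named genes, 4 single arrays stood apart from the others of their group, and chance alone sets about 1 in 20 groups apart. Dnah9 was 0.999 in DCBZ replicate 3, with the nearest DCBZ array at 0.632. Hydin was 0.862 in the same array, with the nearest at 0.595. Gsto1 was 2.98 in CCO5 replicate 1, with the nearest at 3.6. Snrpd3 was 2.24 in CCO5 replicate 4, the array with the lowest RNA integrity number, with the nearest at 1.75.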

How the results depend on the processing

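Of the 32 named genes, none changed direction under the 25 alternatives, and Ces1g, Nqo1, Ces1f and Acox2 kept their call in each. Against both control sets 142 genes rose and 51 fell. The counts were 5 and 0 with the 14 arrays alone, 266 and 147 with the arrays of the batch, and 408 and 309 with the beta-actin covariate. They were 450 and 251 with pooled controls and 322 and 208 against CCO5 alone. When every probe set was tested, 1250 and 366 were called, which is 4.48% and 1.31% of 27904. Quantile normalization gave 250 falls. Leaving out each array gave 94 to 146 rises and 20 to 70 falls, with 94 and 20 without DCBZ replicate 3, 103 and 54 without DCBZ replicate 1, 27 falls without DCBZ replicate 2, 25 without CCO6 replicate 3 and 33 without CCO5 replicate 2. Called each time were 37 of the 142 and 11 of the 51. Against CCO5, higher and lower genes were 6 and 0 (14 arrays), 578 and 540 (batch), 751 and 774 (beta-actin covariate), 176 and 79 (Gapdh covariate) and 3 and 0 (9 arrays), with 878 lower after quantile normalization. Leaving out each array gave 216 to 481 higher and 86 to 387 lower. Against CCO6 they were 5 and 0 (14 arrays), 363 and 223 (batch) and 557 and 477 (beta-actin covariate), with 349 lower after quantile normalization and 121 with the Gapdh covariate. Leaving out each array gave 139 to 208 and 33 to 148. Between CCO5 and CCO6, quantile normalization gave 3 higher and 4 lower, and leaving out each array 0 to 1 and 0 to 2. Against TCPN, quantile normalization gave 230 and 90, no filter 3003 and 1082, and the batch alone 1755 lower, and leaving out each array gave 160 to 757 and 113 to 868. The beta-actin 3′ minus 5′ difference without each array was -0.209 to -0.0133 from CCO5 and -0.251 to -0.0553 from CCO6, and the Gapdh one -0.689 to -0.47 and -0.545 to -0.407. The cause of these changes was not tested. No paired analysis was possible because the replicate numbers were given in accession order and pair no mice. The Gapdh covariate, the 9 arrays, the test of every probe set and the alternatives for each control set alone were chosen after seeing the data.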
